A study of Mus musculus with 12 samples.

Results

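A group of 352 genes was followed whose probe signal did not move when mouse astrocytes were activated but was low on the array of cells treated with the compound E29. The genes were chosen by a rule on the intensities as processed by the authors, with each gene represented by its brightest probe over the 12 arrays. A gene was eligible where the non-activated control reached at least 100 and neither control lay under 0.8 times the other, which held for 3435 of 16593 genes with a probe. An eligible gene entered the group where its E29 value was at most 0.4 times the median of the other 11 arrays, which held for 352 of 3435 (10.2%). The remaining 3083 eligible genes serve as the comparison set. Of the 352, 5 carry only clone or predicted-gene names and are counted but not named.

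The series measured total RNA on 1-colour Illumina bead arrays in a study of small-molecule hits on activated astrocytes. The astrocytes were made from neural stem cells of the line Rosa25/OG2, by 4 days of differentiation in 10% fetal calf serum and 14 days of maturation. E29 cells were activated with 1 µg/ml lipopolysaccharide (LPS, a bacterial cell wall component) and 10 ng/ml interferon-gamma and then given E29 for 4 h, 9 further groups were activated in the same way and given E33, E4, E5, E14, E18, E19, E20, E21 or E23, the activated control received LPS and interferon-gamma without a compound, and the non-activated control received neither. Each group is 1 array of 1 cell line, the number of cultures behind it is not given, and the labels state neither dose nor structure of a compound, so every difference below is between single arrays without a measured error, a test or a p-value.

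Most mRNA in a cell is set by the balance of synthesis and decay. Messages that encode regulators, such as transcription factors, signalling inhibitors and short-lived survival proteins, are often degraded quickly, whereas messages for ribosomal proteins, respiratory chain subunits and other housekeeping components are often long-lived; neither synthesis nor decay was measured here. Zinc finger genes form the largest class of mammalian transcription factors. Many of them carry a KRAB repressor domain or, in the Zbtb genes, a BTB domain that recruits corepressors.

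Sequence was set beside the members at their promoters, because regulators of transcription were frequent among them. The 250 bases before the annotated start are printed for 4 members, each from a different class of transcription regulator. They are Zfp282, a zinc finger gene at chr6:47877305-47877554 on the plus strand, Zbtb7a, a BTB zinc finger gene at chr10:81136021-81136270 on the plus strand, Klf9, a Krüppel-like factor gene at chr19:23140976-23141225 on the plus strand, and Med26, a Mediator subunit gene at chr8:72548311-72548560 on the minus strand. All 4 windows lie upstream of the gene, in RefSeq assembly GRCm38.p6. Sequences read 5′ to 3′ on the strand of the gene, and capitals mark a GC box (GGGCGG or CCGCCC) or a CCAAT box (CCAAT or ATTGG).
Zfp282: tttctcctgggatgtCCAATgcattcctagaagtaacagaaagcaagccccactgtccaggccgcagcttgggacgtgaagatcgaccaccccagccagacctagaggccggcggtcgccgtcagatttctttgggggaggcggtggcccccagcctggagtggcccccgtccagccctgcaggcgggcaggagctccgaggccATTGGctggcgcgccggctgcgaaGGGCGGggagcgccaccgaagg
Zbtb7a: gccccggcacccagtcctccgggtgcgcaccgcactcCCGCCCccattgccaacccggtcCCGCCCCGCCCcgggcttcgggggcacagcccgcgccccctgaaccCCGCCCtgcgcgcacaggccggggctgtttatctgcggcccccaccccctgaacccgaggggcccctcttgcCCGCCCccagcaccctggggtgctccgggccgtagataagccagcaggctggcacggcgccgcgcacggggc
Klf9: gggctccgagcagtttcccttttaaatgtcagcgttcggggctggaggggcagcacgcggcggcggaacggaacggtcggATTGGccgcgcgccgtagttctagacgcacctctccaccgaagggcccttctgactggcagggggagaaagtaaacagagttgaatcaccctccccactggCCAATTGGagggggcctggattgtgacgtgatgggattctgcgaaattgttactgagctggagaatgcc
Med26: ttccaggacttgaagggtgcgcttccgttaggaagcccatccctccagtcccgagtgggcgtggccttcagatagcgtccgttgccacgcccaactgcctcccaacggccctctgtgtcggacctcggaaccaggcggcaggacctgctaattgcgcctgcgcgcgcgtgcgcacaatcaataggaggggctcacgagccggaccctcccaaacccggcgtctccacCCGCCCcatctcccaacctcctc
The Zbtb7a window held 4 GC boxes counted without overlap within a strand and no CCAAT box. The Klf9 window held no GC box and 3 CCAAT boxes, of which a pair overlaps on opposite strands. Zfp282 had 1 GC box and 2 CCAAT boxes, and Med26 had 1 GC box. None of the 4 windows held TATAAA or TTTATA.

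The promoters of members were set beside those of the other eligible genes and of all genes. A window of 300 bases, from 250 before to 50 after the start, was on hand for 294 of 352 members, 2543 of 3083 other eligible genes and 27025 genes in all, and both strands were searched. The GC box GGGCGG was found in 70.7% of member promoters, 67.8% of the promoters of other eligible genes and 35.9% of all promoters. CCAAT was found in 40.1%, 40.6% and 37.9% in the same order, and the ETS site CCGGAAG in 23.8%, 22.3% and 9.12%. TATAAA was found in 4.08% of member promoters, 7.51% of those of other eligible genes and 14.2% of all. The cAMP response element TGACGTCA was in 3.40%, 3.62% and 1.88%, the AP-1 site TGAGTCA in 2.38%, 3.30% and 5.17%, and the ZBTB33 site TCTCGCGAG in 3.40%, 2.08% and 0.718%. The median window held 25 CpG dinucleotides and 63.0% G and C in members, 21 and 60.7% in other eligible genes, and 7 and 52.7% over all promoters. Both eligible sets thus had more G and C than promoters at large, and a match is only a description of these letters.

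The values that chose the members spread widely. The ratio of E29 to the median of the other 11 arrays ran from 0.0162 to 0.4, with quartiles of 0.109, 0.209 and 0.312. It was at most 0.1 in 79 members and above 0.3 in 96. The members nearest inside the limit were Zdhhc13 (0.398), Pptc7 (0.398) and Ppp2r2d (0.4), and the eligible genes nearest outside it were Med10 (0.401), Urgcp (0.402) and Mapk14 (0.403). Members and other genes therefore form a continuum at the limit. The mirror rule, E29 at least 2.5 times the median, held for 14 eligible genes.

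For all further values the unprocessed intensities were background-corrected and quantile-normalised together, and levels are given as normalised intensity on a linear scale, which includes an added offset of 16. On this scale E29 was the lowest of the 12 arrays for all 352 members, as the rule largely requires, and it lay at least 2-fold under the next lowest array for 305 of them, with a median gap of 3.05-fold. At 2-fold, 327 of 352 members were lower with E29 than in the activated control, where 14.5% of all 7475 measured genes were lower, and 324 were lower than in the non-activated control, where 13.1% of all measured genes were. These counts restate the rule. The median log2 change with E29 was 0.26 over all measured genes and -0.31 after scaling on reference genes, and the median member lay at -2.06 and -2.25 relative to it. The median member was 3.48-fold lower with E29 than in the activated control (range 1.50 to 21.9), 140 members were at least 4-fold lower and 15 at least 10-fold lower. A probe was called detected at a detection p-value under 0.01. All 352 members were detected on both controls, 203 were detected with E29, and for the other 149 the fold is a lower bound, set by the lowest detected value of the E29 array (63.0).

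**Figure D1:**
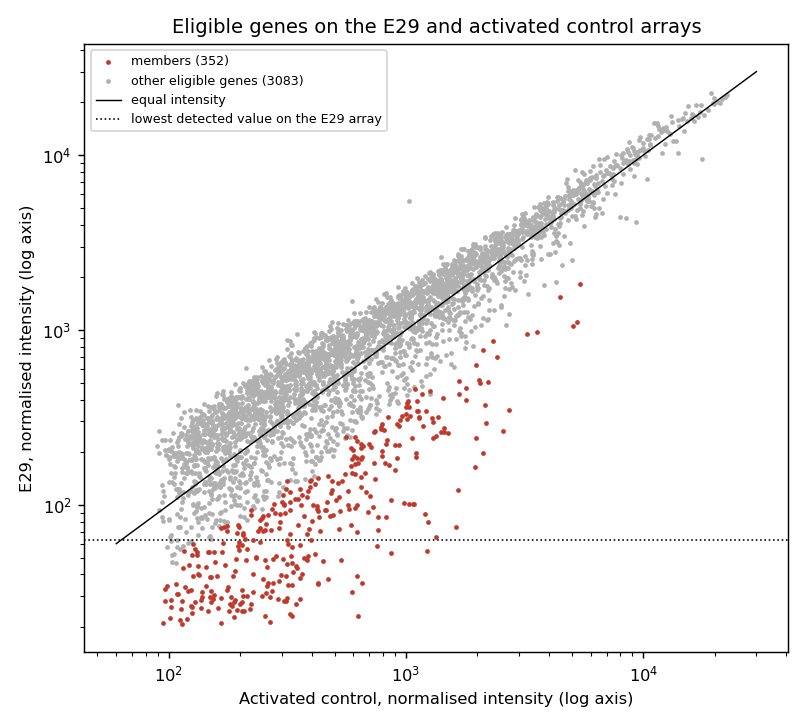
Normalised intensity of each eligible gene with E29 (vertical, log axis) against the activated control (horizontal, log axis), with the 352 members in red and the 3083 other eligible genes in grey, 1 array each. The solid line marks equal intensity and the dotted line the lowest detected value of the E29 array (63.0), with 149 members not detected on that array, so members lie below the line of equal intensity and grey genes straddle it.

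The scatter of E29 against the activated control shows that members reached from dim to bright probes but were thinned among the brightest. In processed intensity of the non-activated control, 79 of 614 eligible genes from 100 to 200 were members (12.9%), 115 of 789 from 200 to 400 (14.6%) and 80 of 673 from 400 to 800 (11.9%). The share was 9.26% from 800 to 1600 (55 of 594) and 3.01% at 1600 or more (23 of 765). Probe brightness is no measure of expression between genes, so the ranges describe probes.

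Several members were bright on all 11 other arrays and near background with E29. Bhlhe40, a basic helix-loop-helix repressor that also acts in the circadian clock, had 74.4 with E29, 1631 in the activated control and 1318 in the non-activated control. Over the other 9 compound arrays it ran from 1176 (E19) through a median of 1452 to 2003 (E14). E29 was thus far below a range within which the other arrays overlapped both controls, and Bhlhe40 was 21.9-fold lower with E29 than in the activated control. Ier5l, an immediate early response gene, had 65.7 with E29, 1332 in the activated control and 1406 in the non-activated control, and from 884.9 (E33) to 1462 (E19) with the other compounds (median 1250). It was 20.3-fold lower with E29, and E33 was the lowest of the rest. Of 6 eligible immediate early genes 2 were members (33.3%), Ier5l and Btg1. Outside the group were Egr1 (ratio 1.66), Srf (0.656), Fos (0.536) and Per1 (0.504), named after their values were seen.

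Btg1, an antiproliferative regulator, was not detected with E29 (54.2) and had 1226 in the activated control and 1235 in the non-activated control. The other compounds gave 946.3 (E33) to 1404 (E23), with a median of 1103, so that Btg1 was at least 19.5-fold lower with E29 and apart from all other arrays. Ets2, an ETS-family transcription factor, had 80.0 with E29, 1239 in the activated control and 1115 in the non-activated control, and 841.5 (E33) to 1666 (E21) elsewhere (median 1353). It was 15.5-fold lower with E29. Bet1l, a SNARE protein of the Golgi, was not detected with E29 (53.1), had 864.6 in the activated control and 999.9 in the non-activated control, and was at least 13.7-fold lower. For Bhlhe40, Ier5l, Btg1 and Ets2 both controls lay inside the range of the other compounds, and for Bet1l the non-activated control lay just above it (633.3 with E33 to 941.5 with E5).

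By the rule's own ratio the lowest member was Nup62, a nuclear pore protein, with 23.2 (not detected) with E29, 626.6 in the activated control and 579.8 in the non-activated control. It ran from 445.9 (E33) through 658.2 to 816.9 (E4) with the other compounds and was at least 9.95-fold lower with E29. Next came Trmt10c, a subunit of mitochondrial RNase P (at least 5.27-fold lower), Mad2l1bp, which silences the spindle checkpoint (at least 5.45-fold), and Snrk, an AMPK-related kinase (at least 9.36-fold). Bcl6, a BTB zinc finger repressor outside the Zbtb names, had 39.3 (not detected) with E29, 619.6 in the activated control and 664.1 in the non-activated control, and was at least 9.84-fold lower. Its other compound values reached down to 311.6 with E4. Gcnt2, a glycosyltransferase that makes branched I antigen, was at least 10.3-fold lower, with 35.6 with E29 and 649.3 in the activated control.

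**Figure D2:**
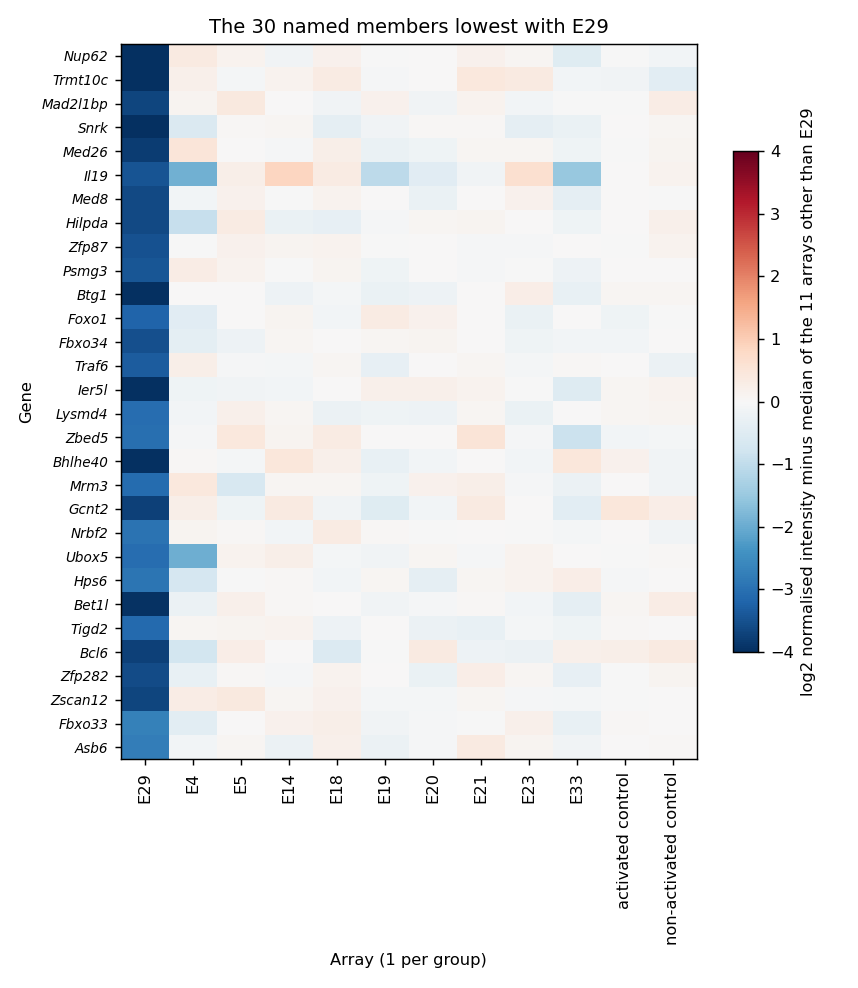
Each row is 1 of the 30 named members with the lowest ratio and each column 1 array; colour gives the log2 normalised intensity minus the gene's median over the 11 arrays other than E29, with differences beyond 4 drawn at the end of the scale. The E29 column is dark blue in every row, while the other columns stay near 0 except for single genes such as Il19 and Ubox5 with E4.

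The map of the 30 lowest named members shows 1 uniform column and few marks elsewhere. It also holds Foxo1, a forkhead transcription factor (26.9 with E29, not detected, and 222.6 in the activated control), Traf6, the ubiquitin ligase that carries Toll-like receptor signals (28.8, not detected, and 289.0), and Hilpda, a lipid droplet protein (21.4, not detected, and 267.1). They were at least 3.53-fold, 4.59-fold and 4.24-fold lower with E29. For dim genes such as these the floor of the E29 array limits how large a decrease could be seen.

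The members were then set against 30 gene lists by function. The share of eligible genes in the group was 10.2% over all genes, and in most lists of transcription factors it was well above that. Of 48 eligible genes whose symbols start with Zfp, 30 were members (62.5%), as were 6 of 7 Zbtb genes (85.7%) and all 4 eligible Krüppel-like, C/EBP and Sp factors. The single Zbtb gene outside the group was Zbtb41 (ratio 1.13), named after its value was seen. Of 7 eligible developmental transcription factors 3 were members, namely Bhlhe40, Ets2 and Foxo1.

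Among the Zfp genes, Zfp574 had 71.6 with E29, 762.4 in the activated control and 736.0 in the non-activated control, and 738.3 (E23) to 1014 (E18) with the other compounds (median 872.5). It was 10.6-fold lower with E29, and the 11 other arrays stayed between 736.0 and 1014. Zfp46 was brighter, with 240.6 with E29, 1973 in the activated control and 2350 in the non-activated control, and was 8.20-fold lower, while E4 gave 1143, the lowest of the other arrays. Zfp637 had 85.1 with E29 and 823.0 in the activated control (9.67-fold lower), Zfp655 was at least 8.41-fold lower and Zfp282, whose promoter is printed above, had 35.8 (not detected) with E29 and 425.6 in the activated control and was at least 6.76-fold lower. At the other end Zfp131 had 365.1 with E29, 996.2 in the activated control and 1027 in the non-activated control, a 2.73-fold difference. Zfpm1 and Zfpm2, which encode cofactors of GATA transcription factors, were 3.02-fold and at least 3.15-fold lower.

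The Zbtb members were Zbtb2, Zbtb5, Zbtb7a, Zbtb17, Zbtb24 and Zbtb39. Zbtb17 (MIZ-1, a partner of MYC) had 120.7 with E29, 567.3 in the activated control and 616.4 in the non-activated control, and was 4.70-fold lower. Zbtb24 was at least 5.30-fold lower, Zbtb5 at least 4.16-fold and Zbtb39 at least 2.82-fold. Zbtb7a was dim, with 25.8 (not detected) with E29, 136.1 in the activated control and 165.0 in the non-activated control, so its 2.16-fold is a lower bound.

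The Krüppel-like members were Klf7, Klf9, Klf13 and Klf16. Klf9, a glucocorticoid- and thyroid hormone-responsive factor, had 432.8 with E29, 1672 in the activated control and 1544 in the non-activated control, and 1176 (E33) to 1582 (E21) with the other compounds (median 1448). It was 3.86-fold lower with E29. Klf16 was 3.52-fold lower, Klf7 2.81-fold and Klf13 2.60-fold, and all 4 were detected with E29.

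In lists of the transcription machinery and of chromatin the shares were nearer to that of all eligible genes. Of 33 eligible elongation and Mediator genes 6 were members (18.2%), namely Med26, Med8, Med31, Aff1, Ell and Tbp. Med26, the Mediator subunit that recruits elongation factors, had 23.8 (not detected) with E29, 324.3 in the activated control and 352.8 in the non-activated control, and was at least 5.15-fold lower. Aff1, a scaffold of the super elongation complex, had 112.1 with E29 and 705.9 in the activated control (6.30-fold), and Ell, an elongation factor of the same complex, had 151.6 and 670.7 (4.42-fold). Tbp, which binds the TATA box, was at least 3.40-fold lower with E29, and it was the single member among 9 eligible genes often used as expression references.

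Of 25 eligible chromatin regulators 7 were members (28%), and all 7 decreased by less than the median member. Kdm6a, a histone H3 lysine demethylase, had 212.9 with E29, 713.4 in the activated control and 672.2 in the non-activated control (3.35-fold lower). Ep300, a histone acetyltransferase, was 3.13-fold lower, Pcgf1, a Polycomb component, 3.12-fold, Kat5 2.94-fold, Eed 2.88-fold, Setd1a 2.54-fold and Hdac4 2.34-fold. All 7 were detected with E29.

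Regulators of signalling and survival formed smaller lists. Mcl1, a short-lived anti-apoptotic BCL2 family protein, had 348.0 with E29, 2719 in the activated control and 3216 in the non-activated control, and 1973 (E33) to 2901 (E18) with the other compounds (median 2511). It was 7.82-fold lower with E29 and its E29 value lay far under the lowest other array. With Bcl2l1 (at least 3.13-fold) and Traf6 it made 3 of 6 eligible apoptosis regulators. Of 4 eligible feedback inhibitors of MAP kinase and receptor signalling 3 were members. Spred1, an inhibitor of RAS signalling, had 273.3 with E29, 1449 in the activated control and 1222 in the non-activated control (5.30-fold lower), whereas Dusp7 and Trib2 were dim, at least 1.91-fold and 1.99-fold lower.

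Smad1, which carries BMP signals, had 101.3 with E29, 1081 in the activated control and 911.0 in the non-activated control, and was 10.7-fold lower. It was a member with Tgfbr1, the type I TGF-beta receptor (4.43-fold), out of 7 eligible genes of that pathway. Single members came from the Notch and Id list (Hes1, at least 2.79-fold), the Wnt list (Fzd7, at least 3.94-fold) and the guidance list (Sema4b, 5.67-fold), out of 3, 5 and 4 eligible genes. Rela, the NF-kB p65 subunit, had 701.5 with E29, 2410 in the activated control and 2013 in the non-activated control (3.44-fold), and was the single member of 3 eligible NF-kB genes. Pdgfa, a growth factor for oligodendrocyte precursors, had 860.4 with E29, 2333 in the activated control and 2475 in the non-activated control (2.71-fold).

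Of 23 eligible ubiquitin ligases and deubiquitinases 9 were members (39.1%). Rnf19a, a RING-type ligase, had 196.9 with E29, 2103 in the activated control and 2446 in the non-activated control, and 1849 (E33) to 2556 (E4) with the other compounds (median 2027). It was 10.7-fold lower with E29. Asb8 was 5.42-fold lower, Fbxw7, which targets MYC and cyclin E for degradation, at least 4.50-fold, and Fbxl14 3.88-fold. Asb6, Fbxl5, Fbxo33, Siah1b and Usp53 lay between 2.19-fold and 2.99-fold, bounds included. Ligases and deubiquitinases outside the group made up the other 14.

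Housekeeping lists held few members, and several of them lay mostly in the brightest range of probes, where 3.01% of eligible genes were members. At 1600 or more were 39 of 49 eligible cytosolic ribosomal protein genes, 46 of 61 oxidative phosphorylation genes and 13 of 23 proteasome subunits, against 6 of 22 splicing and RNA-processing factors and 8 of 53 mitochondrial ribosomal protein genes. A count of 0 is therefore near the share of that range for the ribosomal and oxidative phosphorylation lists. Of 49 eligible cytosolic ribosomal protein genes 0 were members, and their ratios ran from 0.806 to 1.85 with a median of 1.09. Of 61 oxidative phosphorylation genes 0 were members (median 1.17, lowest 0.915), of 23 proteasome subunits 0 (median 0.955, lowest 0.528) and of 22 splicing and RNA-processing factors 0 (median 0.968, lowest 0.483). Of 53 mitochondrial ribosomal protein genes 1 was a member, Mrpl46, which had 458.8 with E29, 1087 in the activated control and 1001 in the non-activated control (2.37-fold). The 7 eligible p53 targets, 4 cell cycle genes and 4 cholesterol synthesis genes held 0 members, but at a share of 10.2% lists this short would hold less than 1, so nothing is read from them.

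Transport and traffic genes lay near or under the share of all eligible genes. Of 59 eligible genes whose symbols start with Slc, 5 were members (8.47%). Slc19a2, a thiamine transporter, had 94.3 with E29, 575.6 in the activated control and 548.1 in the non-activated control (6.10-fold). The others were Slc31a2, Slc35e4, Slc66a2 and Slc4a1ap, the last of which encodes an adaptor and not a carrier. Of 24 eligible Rab-named genes 2 were members, the GTPase Rab33b (2.75-fold) and the exchange factor gene Rab3ip (at least 1.98-fold).

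**Figure D3:**
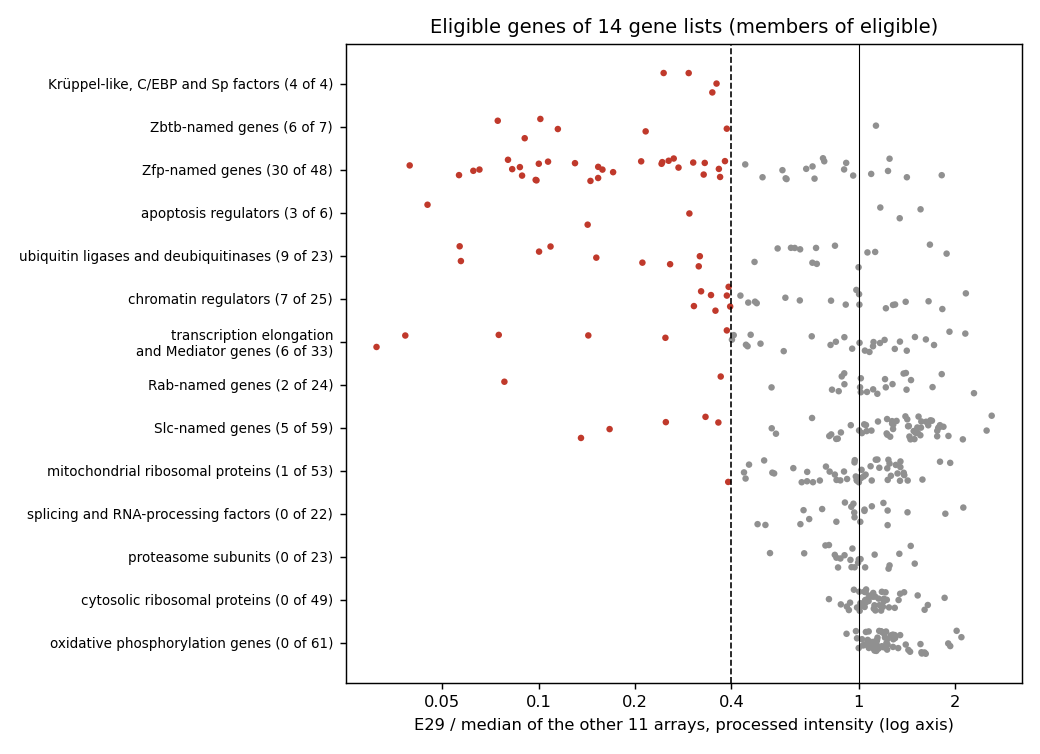
Each point is 1 eligible gene of 14 gene lists, placed by its processed E29 intensity over the median of the other 11 arrays (log axis); red points are members, at or left of the dashed line at 0.4, and the solid line marks equality. The Zfp-named (30 of 48), Zbtb-named (6 of 7) and Krüppel-like lists (4 of 4) lie mostly left of the dashed line, while cytosolic ribosomal protein (0 of 49) and oxidative phosphorylation genes (0 of 61) cluster around 1.

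The strips by gene list show that the Zfp genes spread from a ratio of 0.0395 to 1.81, whereas the oxidative phosphorylation genes kept to 0.915 to 2.09. The lists describe the group and were chosen with earlier results of these data known. The same eligible genes set both the shares and their background, so the shares carry no test.

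The label of the group was set beside arrays that the rule did not set against each other. The rule used 1 activated array for stability, and the 9 other compound arrays were activated as well. Their median and the non-activated control lay within the same limits of each other for 292 of 352 members (83.0%) and 2717 of 3083 other eligible genes (88.1%), where 38.9% of all 8092 measured genes lay outside. The non-activated control was also used to find eligible genes. The gap to all measured genes therefore follows in part from the rule. Of the members outside, 40 lay below (11.4%, against 6.29% of other eligible genes) and 20 above (5.68%, against 5.58%).

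The members also varied more among the other compounds than the remaining eligible genes did. The range over the 9 other compound arrays, highest over lowest, had a median of 1.54-fold in members and 1.37-fold in other eligible genes. It stayed under 1.5-fold for 152 members (43.2%) and 2217 other eligible genes (71.9%). These sets were not matched for probe brightness. The median processed intensity in the non-activated control was 350 in members and 574 in other eligible genes. The part of brightness in the wider range was not tested. Of the 11 arrays other than E29, the lowest value fell on E4 in 135 members (38.4%) and on E33 in 109 (31.0%), against 494 (16%) and 262 (8.50%) of other eligible genes. The remaining 9 arrays were each the lowest for 4 to 20 members.

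Each of the other compounds was set against the activated control, a contrast that did not choose the members, at 1.5-fold. All of these comparisons share the activated control array, so they are not independent of each other. The activated control was also used to find eligible genes. For scale, the standard deviation over genes of the log2 difference between E5 and the activated control was 0.20.

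After E29, the array with the most lower members was E4. With E4, 73 of 352 members were lower (20.7%), against 176 of 3083 other eligible genes (5.71%) and 9.56% of all measured genes. Higher with E4 were 10 members, where 4.55% of all measured genes were higher. At 2-fold 20 members were lower, where 2.87% of all measured genes were. The median log2 change was -0.25 in members, 0.09 in other eligible genes and 0.04 in all measured genes, and 259 of 352 members lay below the activated control.

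With E33, 37 members were lower (10.5%), against 37 other eligible genes (1.2%) and 4.77% of all measured genes. Higher with E33 was 1 member, Zfhx3, where 2.4% of all measured genes were higher. At 2-fold 6 members were lower, where 0.773% of all measured genes were. The median log2 change was -0.20 in members and 0.05 in other eligible genes, and 273 of 352 members lay below the activated control. Scaling to a common median moved the median of all genes with E4 to -0.13, and scaling on reference genes moved it to -0.42 with E4 and -0.48 with E33. After that scaling 231 members (65.6%) were lower with E4, against 792 other eligible genes (25.7%), and 232 members (65.9%) were lower with E33, against 1000 other eligible genes (32.4%). After median scaling it was 145 members (41.2%) against 354 (11.5%) with E4, and 59 (16.8%) against 75 (2.43%) with E33. Relative to all genes the members stayed lower, by -0.21 to -0.32 with E4 and -0.16 to -0.24 with E33 over these and all other alternatives.

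The lower values with E4 and E33 were seen at each level of probe brightness. Over the 5 ranges above, from 15% to 26.1% of members were lower with E4, against 1.62% to 9.35% of other eligible genes. With E33 it was 6.25% to 13% of members, against 0.371% to 2.62%.

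**Figure D4:**
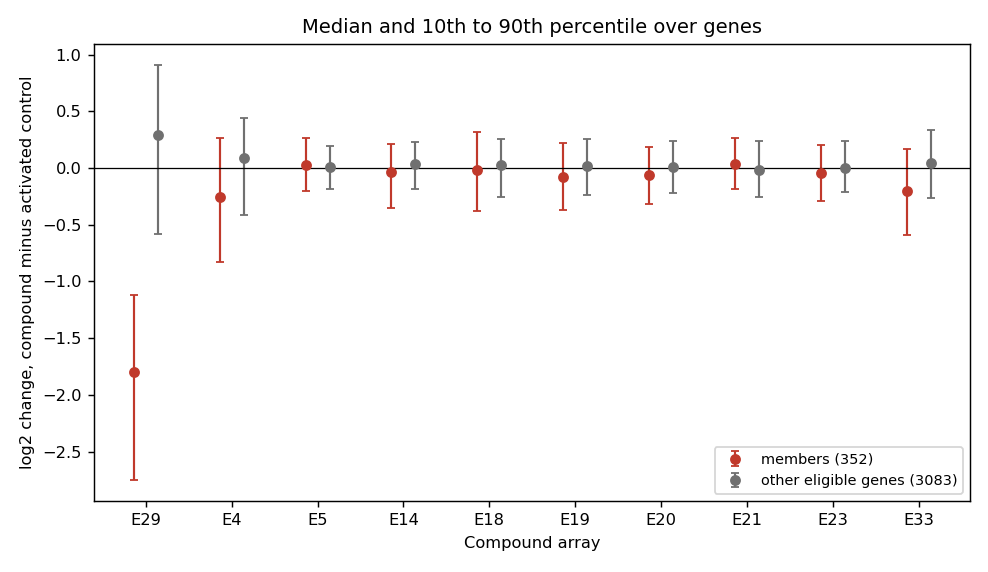
Points give the median and bars the 10th to 90th percentile over genes of the log2 change of each compound array minus the activated control, for the 352 members (red) and the 3083 other eligible genes (grey); bars show spread over genes, not error. Members lie lowest with E29 (-1.80), which the rule chose, and below the other eligible genes with E4 (-0.25) and E33 (-0.20), and have medians from -0.08 to 0.04 with the other 7 compounds.

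The plot of medians by compound also gives the other 7 compounds. The counts lower and higher were 4 and 1 with E5, where 0.703% and 0.243% of all measured genes were lower and higher. They were 4 and 2 with E14 (1.39% and 0.401%), 9 and 1 with E18 (2.89% and 0.803%), and 9 and 3 with E19 (2.22% and 0.845%). They were 2 and 2 with E20 (1.29% and 0.433%), 1 and 4 with E21 (0.626% and 1.01%), and 3 and 1 with E23 (0.561% and 0.602%). With E5, 1.14% of members and 0.130% of other eligible genes were lower. These shares were 1.14% and 0.389% with E14, 2.56% and 1.62% with E18, and 2.56% and 0.778% with E19. They were 0.568% and 0.324% with E20, 0.284% and 0.259% with E21, and 0.852% and 0.195% with E23. The share higher was larger in members than in other eligible genes except with E18 and E23. Median log2 changes of members ran from -0.08 with E19 to 0.04 with E21. After scaling on reference genes they were -0.53 with E19, -0.42 with E20 and -0.27 with E18. The calls of the 7 compounds, both directions summed, were then 283 in place of 46. That scaling also moved the median of all measured genes, to -0.42 with E4 and -0.48 with E33. For the 7 compounds the same values were not computed over other eligible genes under that scaling, so no member result is read from them.

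Individual members that were lower with E4 came from several functions. Tmem177, a mitochondrial membrane protein, had 67.5 with E4 and 272.7 in the activated control (4.04-fold lower), and Ubox5, a U-box ubiquitin ligase, had 48.7 with E4 and 188.6 in the activated control (3.87-fold). Angptl4, a secreted inhibitor of lipoprotein lipase, had 111.3 with E4 and 357.4 in the activated control (3.21-fold). It was also lower with E14 (2.08-fold), E18 (1.99-fold) and E23 (1.54-fold). Il19, a cytokine of the IL-10 family, had 80.5 with E4, 106.7 with E33 and 306.6 in the activated control, so it was 3.81-fold and 2.87-fold lower. It was also lower with E19 (149.7, or 2.05-fold). It was higher with E14 (551.7, or 1.80-fold) and with E23 (477.1, or 1.56-fold), so Il19 moved both ways between compounds.

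The zinc finger members are given by family for E4, with no test between families. Over all 352 members 73.6% lay below the activated control with E4, 20.7% were at least 1.5-fold lower and 2.84% at least 1.5-fold higher. Of 30 Zfp members 23 lay below the activated control with E4 and 8 passed 1.5-fold, with a median of -0.22 in log2, and Zfp94 (89.1 with E4, 257.7 in the activated control) and Zfp451 (131.7 and 329.7) had the lowest values relative to the activated control. Of 6 Zbtb members 3 were higher with E4, namely Zbtb2 (341.2 with E4, 171.2 in the activated control, 1.99-fold), Zbtb39 (1.51-fold) and Zbtb7a (1.51-fold), a count that was 1 after scaling to a common median and 0 after scaling on reference genes. Klf7, a neuronal Krüppel-like factor, was also higher, with 1414 with E4 and 741.4 in the activated control (1.91-fold). All 7 chromatin members lay below the activated control with E4 under all 3 scalings, with a median of -0.44. After scaling on reference genes all 30 Zfp, 6 elongation and Mediator and 9 ubiquitin members lay below it too. The number of chromatin members past 1.5-fold was 1 (Hdac4). It was 5 after median scaling and 7 after scaling on reference genes, where 41.2% and 65.6% of all members passed.

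Chac1, which degrades glutathione and is induced in the integrated stress response, had 253.2 with E4, 119.8 in the activated control and 121.4 in the non-activated control (2.11-fold higher), and 22.2 (not detected) with E29. E4 and E29 thus lay on opposite sides of both controls for this gene.

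With E33 the largest decrease was in P2ry6, a receptor for UDP, which had 49.8 with E33 and 151.2 in the activated control (3.04-fold). P2ry6 was also lower with E14 (74.6), E18 (63.7), E19 (58.8), E20 (90.8) and E23 (77.3), and had 159.4 in the non-activated control. Since up to 5 members were named per compound and direction, the compounds given for a gene may not be all that passed 1.5-fold. Chst3, a chondroitin sulfotransferase, had 72.2 with E33 and 183.9 in the activated control (2.55-fold), and Plekho2 was 2.35-fold lower.

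A pair of oxidative stress genes in the group rose with some compounds. Hmox1, the haem-degrading enzyme heme oxygenase 1, had 1055 with E29, 5056 in the activated control and 4521 in the non-activated control. It had 9669 with E19 (1.91-fold higher), 8644 with E20, 8217 with E14 and 8134 with E5, so these arrays lay above both controls while E29 lay below. Srxn1, sulfiredoxin, had 298.9 with E29, 1299 in the activated control and 1457 in the non-activated control, was higher with E19 (2569) and E20 (2381), and was lower with E33 (588.6, or 2.21-fold).

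Probes of a gene that the rule did not use went mostly with the chosen probe. Of 214 such probes 67, in 60 genes, reached 100 in the non-activated control, and 55 of these had an E29 ratio of at most 0.4 and 65 lay at least 1.5-fold under the median of the other arrays. The 2 that did not were probes of Cwc22 (1.09) and Uhrf2 (0.730), named after their values were seen. Genomic length had a median of 16980.5 bases in members and 19407 in other eligible genes. Longer than 100 kb were 15 members (4.26%), against 268 other eligible genes (8.70%).

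Properties of the E29 array stood beside these values. It detected 9106 probes, against 10093 to 10719 on the others, and its lowest detected value was 63.0, against 41.3 to 48.0. Its median raw intensity of 120 lay within the 117 to 127 of the 12 arrays. Of 11 astrocyte markers with a probe 10 were detected on the E29 and both control arrays, with summed intensity of 50232 with E29, 39899 in the activated control and 39528 in the non-activated control. Bright genes such as Slc1a3 (12954 with E29) weigh most in this sum, and single markers differed. Aqp4 had 9781 with E29, 7009 in the activated control and 5978 in the non-activated control, whereas Sox9 had 227.3, 336.5 and 877.1 in the same order. Of 7 neural stem cell markers with a probe 4 were detected on each of these arrays, with summed intensity of 19405 with E29, 18839 in the activated control and 20584 in the non-activated control. Among them Sox2 had 88.7 with E29, 281.8 in the activated control and 614.5 in the non-activated control, and Fabp7 had 424.8, 222.3 and 204.3 in the same order. Markers of microglia (0 of 8) and endothelium (0 of 4) were not detected on those arrays. For fibroblast or pericyte markers 1 of 6 was detected, Acta2, with 1819 with E29, 7090 in the activated control and 4031 in the non-activated control. For neuron markers 2 of 8 were detected with E29, against 3 in each control, and for oligodendrocyte markers 1 of 6 was detected, Cnp, with 1458 with E29, 589.5 in the activated control and 687.1 in the non-activated control. No marker was a member. Sox2 (ratio 0.273) and Acta2 (0.373) lay under the E29 limit of 0.4, but their controls differed too much for them to be eligible. The part of array quality and of cell makeup in the low member values was not tested, and in bulk RNA fewer cells of a type and less RNA per cell cannot be told apart.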

How the data were processed

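Total RNA of 12 groups of cells, 1 array each, was measured on Illumina bead arrays with 25697 probes. The authors deposited the mean bead intensity of each probe without normalisation and, beside it, the detection p-value of that probe, per the file headers. They also deposited processed intensities on a linear scale, with a floor of 10 found from the values. The submitters' processing notes name GenomeStudio 2010.3. The method of background subtraction and of normalising the processed values was not given in the sources used here. Processed values were used for the rule, the ranges of probe brightness and 1 alternative.

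Levels and folds were computed from the unnormalised intensities in R 4.3.3 by limma 3.58.1, function neqc (background from the detection p-values, offset 16, quantile normalisation, log2 scale) and printed as 2 to the power of the log2 value. A gene was measured in a comparison where either array detected it (p-value under 0.01), and an undetected value below the lowest detected value of its array was raised to it, so that such folds are lower bounds. Probe names came from the platform annotation, checked by gene ID in RefSeq (GRCm38.p6), which changed 0 symbols. Of the probes, 23978 had a gene symbol. Promoters are those of RefSeq, GRCm38.p6. Counts used Python 3.11.15, pandas 2.3.3 and numpy 2.4.6, and figures matplotlib 3.10.9.

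Members and gene lists were chosen with earlier results of these data known. Named genes were the 30 nameable members with the lowest ratio, list members as examples, the 3 genes on either side of the limit, and up to 5 members per compound and direction past 1.5-fold. With 1 array per group no test was run, and the number of arrays limits the precision. Alternatives covered background correction, scaling, offset, detection filter, probe choice, reference arrays and the rule's limit.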

Additional observations from a re-analysis of the deposited data

How the results depend on the processing

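No paired analysis was possible because each group holds 1 array and the labels carry no replicate numbers. For 18 results 136 alternatives were computed. Of these, 113 stayed within 1.5 times a count or within 0.20 log2 units of a median, and 23 moved further. The 0.20 is the standard deviation over genes of E5 minus the activated control. A reversal was counted only for a median beyond 0.20 in the main setting, and 0 were found. Counts and smaller medians could not be called reversed. Some smaller medians changed sign. The member median with E14 went from -0.04 to 0.02 against the median of the other compound arrays. With E21 it went from 0.04 to -0.02 after median scaling. Rule settings gave 256 members at a limit of 0.3, 445 at 0.5, 340 with the renormalised values (326 of them among the 352), 348 with the median over probes (341 shared) and, added after seeing the data, 466 with median-scaled values (316 shared). The share of eligible Zfp genes in the group ran from 50% to 73.2% over these settings.

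The median change of members with E29 was -1.27 without background correction, -2.25 after median scaling, -2.56 after scaling on reference genes, -1.46 with an offset of 64 and -2.12 without the detection filter, against -1.80. Members lower with E4 numbered 44 without background correction (12.5%, against 2.76% of other eligible genes). They numbered 145 after median scaling (41.2% against 11.5%) and 231 after scaling on reference genes (65.6% against 25.7%). The E4 median was -0.46 and -0.75 under both scalings. Members lower with E33 numbered 19 without background correction (5.40%, against 0.292% of other eligible genes) and 22 with an offset of 64 (6.25% against 0.519%). They numbered 59 after median scaling (16.8% against 2.43%) and 232 after scaling on reference genes, where the E33 median was -0.72. Under that scaling 65.9% of members and 32.4% of other eligible genes were lower with E33. Calls with the other 7 compounds, both directions summed, were 24 without background correction, 82 after median scaling and 283 after scaling on reference genes. They were 27 with an offset of 64 and 18 against the median of the other compound arrays. These alternative calls were not counted over other eligible genes, so they do not show how members compare. Median scaling and scaling on reference genes differ by 1 shift per array, by construction. Both replace the quantile normalisation of the main setting, and against that setting genes did not all move by the same amount. With E29, median scaling took the median from 0.26 to -0.002 over all measured genes. It went from -1.80 to -2.25 in members and from 0.30 to 0.19 in other eligible genes. The cause of the movements was not tested. Signal over background limited the 149 members not detected with E29, whose decreases could be larger than given.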

Other observations

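The low E29 values of the lists reached beyond genes that activation left unmoved. Of all 5558 genes that reached 100 in the non-activated control, 805 had an E29 value of at most 0.4 times the median of the other 11 arrays (14.5%), and of the 2123 that activation moved beyond the limits 453 did (21.3%). Without the condition on activation, 50 of 85 Zfp genes (58.8%), 9 of 13 Zbtb genes (69.2%) and 8 of 8 Krüppel-like, C/EBP and Sp factors had such a value. Among feedback inhibitors of MAP kinase and receptor signalling it was 14 of 16 genes (87.5%), among apoptosis regulators 12 of 20 (60%) and among immediate early genes 10 of 15 (66.7%). Cholesterol synthesis genes (6 of 14, 42.9%) and p53 targets (5 of 16, 31.2%), which held 0 members, also had shares above 14.5%. Of 54 cytosolic ribosomal protein genes 0 had one, and of 67 oxidative phosphorylation genes 1 did. These counts include the members and rest on the same single E29 array.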
